A study of Mus musculus with 12 samples.

Results

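The chemokine ligands named Ccl, Cxcl or Cx3cl1 were examined in mouse neural progenitor cells (NPCs). Members were all array probes whose gene symbol was Ccl or Cxcl followed by a number, or Cx3cl1, without receptors. This gave 40 probes of 33 genes among 28026 named probes of 21154 genes, namely 20 CC genes, 12 CXC genes and Cx3cl1. The family was selected on the Ccl8 increase on the arrays labelled Srf, so every value of the comparison of Srf with EGFP is given as a description and carries no test. The NPCs had been derived from embryonic stem cells in culture and kept with epidermal growth factor and basic fibroblast growth factor. All 12 samples had received a retrovirus. In the overexpression experiment it carried EGFP (the control), Srf (serum response factor, a transcription factor) or Mkl1 (an actin-bound cofactor of Srf). In the knockdown experiment it carried a short hairpin RNA, directed at EGFP in the control (shEGFP) and at Actb, which encodes β-actin, in shActb_1 and shActb_2. Each of the 6 groups had 2 arrays, and the legend for the Actb knockdown arrays calls such duplicates technical, so the p-values measure array-to-array spread only.

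Chemokines are small secreted proteins that guide migrating cells by binding G protein-coupled receptors. CC and CXC ligands are named for the spacing of their conserved cysteines, and Cx3cl1 and Cxcl16 are anchored in the membrane until they are shed. Many of them are induced by NF-kB or interferon signalling, whereas others, such as Cxcl12, are made constitutively and guide neural progenitors and neurons in the developing brain.

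Promoters of 4 members are shown because these genes carried separate patterns on the arrays. Ccl8 was high on the arrays labelled Srf, Cxcl1 was low on the arrays labelled Mkl1, Ccl9 rose with shActb_1, and Cxcl14 rose with shActb_2. Each RefSeq window (GRCm38.p6) runs from 250 bases before to 50 bases after a transcription start and is written 5′ to 3′ on the gene's strand. Capitals mark matches, on either strand, to the CArG box (the Srf binding motif), the NF-kB motif, the interferon-stimulated response element, the letters TGANTCA (AP-1 motif) or the letters TATAAA (the core promoter box of that name). The windows lie at chr11:82114935-82115234 on the + strand (Ccl8), chr5:90890995-90891294 on the + strand (Cxcl1), chr11:83578587-83578886 on the - strand (Ccl9) and chr13:56296502-56296801 on the - strand (Cxcl14).
Ccl8: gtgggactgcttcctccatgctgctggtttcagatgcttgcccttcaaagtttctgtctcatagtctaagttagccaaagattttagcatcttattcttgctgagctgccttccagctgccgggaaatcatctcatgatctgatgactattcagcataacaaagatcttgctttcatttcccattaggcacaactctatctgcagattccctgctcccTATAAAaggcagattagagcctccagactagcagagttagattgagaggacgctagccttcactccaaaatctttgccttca
Cxcl1: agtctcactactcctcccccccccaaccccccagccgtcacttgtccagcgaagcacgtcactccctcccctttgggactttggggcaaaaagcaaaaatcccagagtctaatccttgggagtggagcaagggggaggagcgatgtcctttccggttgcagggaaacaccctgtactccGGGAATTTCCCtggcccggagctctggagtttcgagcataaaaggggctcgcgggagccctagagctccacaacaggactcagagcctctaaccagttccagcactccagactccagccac
Ccl9: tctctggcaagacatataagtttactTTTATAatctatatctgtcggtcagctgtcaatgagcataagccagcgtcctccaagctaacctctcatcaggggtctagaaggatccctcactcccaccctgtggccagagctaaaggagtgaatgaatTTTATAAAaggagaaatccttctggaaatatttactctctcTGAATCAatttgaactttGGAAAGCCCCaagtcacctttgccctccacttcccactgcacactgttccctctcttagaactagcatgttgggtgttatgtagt
Cxcl14: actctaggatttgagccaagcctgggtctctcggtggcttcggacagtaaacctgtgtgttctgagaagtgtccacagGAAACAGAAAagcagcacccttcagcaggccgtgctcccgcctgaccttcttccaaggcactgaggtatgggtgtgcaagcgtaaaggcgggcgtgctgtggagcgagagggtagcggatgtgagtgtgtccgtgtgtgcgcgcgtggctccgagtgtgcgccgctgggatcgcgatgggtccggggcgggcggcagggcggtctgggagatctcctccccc

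In the Ccl8 window the capitals are a TATA box that begins 32 bases before the start site. In Cxcl1 they are 1 NF-kB site, read on both strands at positions shifted by 1 base, which begins 71 bases before the start. Ccl9 held an NF-kB match, an AP-1 match and 3 TATA box matches, 2 of which overlap on opposite strands. Cxcl14 held an interferon-stimulated response element match that begins 172 bases before the start. The AP-1 letters read the same on both strands. The table held 26 windows of 23 member genes, of which 7 had an NF-kB match, 5 an AP-1 match, 9 a TATA box, 3 an interferon-stimulated response element and 0 a CArG box. Among all 32851 windows the shares were 4.51%, 7.81%, 13.6%, 3.44% and 1.63%, respectively. These are letter matches in short windows and say nothing about binding.

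Levels below are log2 signals of a probe minus the array's 75th percentile, and differences are between group means on this log2 scale. Levels of different probes cannot be compared. Depending on the array, 59.3% to 72.5% of 55681 probes were well above background and none was saturated. Arrays of a group correlated at r = 0.993 to 0.998, and the share of probes differing by over 2-fold between duplicates was largest in EGFP, at 2.74%. EGFP, Srf and Mkl1 were on slide 1, the shEGFP and shActb_1 arrays on slide 2 and those of shActb_2 alone on slide 3, so that slide and the second hairpin cannot be told apart. The Actb probe fell by 0.53 with shActb_1 and by 0.65 with shActb_2, and the Mkl1 (Mrtfa) probes differed by 0.20 and 0.17 on the arrays labelled Mkl1 (adjusted p = 0.12 and 0.313, limma), the groups overlapping at the second, so that these probes do not show the overexpression. Both Srf probes went against the label, at -2.46 and -1.40 on the arrays labelled Srf, against 0.71 and 1.18 on those labelled Mkl1 (adjusted p = 0.000522 and 0.00121, limma), and where the Srf and Mkl1 probes lie relative to the inserted reading frames is not given in the sources used here. These arrays are therefore called the arrays labelled Srf. The median over all 55681 probes was -0.14 for Srf and -0.13 for Mkl1 against EGFP, and 0.0012 and -0.0071 after quantile normalization. Of 11 neural progenitor markers, 9 or 10 were above background on both arrays of each group, and Olig2 was above it on no array outside Mkl1. Nes rose by 1.16 and Slc1a3 fell by 1.37 on the arrays labelled Mkl1. Slc1a3, Fabp7 and Sox2 fell with shActb_1 (by 1.30, 1.27 and 1.01), Slc1a3 fell with shActb_2 (by 1.11), and Fabp7 was 1.02 higher with shActb_2 than with shActb_1, all past the adjusted p (limma). The Sox2 difference was -1.05 on the arrays labelled Srf. In these bulk samples, fewer cells of a type and less RNA per cell cannot be told apart.

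Of the 33 genes, 17 had a probe above background on all 12 arrays, 4 (Ccl11, Cxcl9, Cxcl13 and Cxcl15) were above it on both arrays of some groups only, and 12 on both arrays of no group. The last class held Ccl3 (above background on 1 array) and Ccl12 (on 3 arrays), together with Ccl1, Ccl4, Ccl6, Ccl20, Ccl22, Ccl24, Ccl26, Ccl28, Cxcl2 and Cxcl17 (on none). Family genes without a named probe (Ccl21a to Ccl21d, Ccl27b and Cxcl11) were not analysed here. A probe was tested where both arrays of either compared group were above background, and it was called when its adjusted p was under 0.05 (limma, Benjamini-Hochberg over all tested probes) and its change over 2-fold.

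Against EGFP, 26 member probes passed the filter on the arrays labelled Srf. This comparison selected the family and is only described. Among these probes, Ccl8 and Cxcl15 were measured over 2-fold higher, and Ccl9 and Cx3cl1 over 2-fold lower. Of all tested probes, 3.29% were higher and 2.25% lower past both the adjusted p and 2-fold. The median difference was 0.24 over the tested members and -0.04 over all 35552 tested probes. On the arrays labelled Mkl1, 0 of 25 member probes were called higher (background 1.29%) and 3 lower (background 1.49%), namely Cxcl5, Ccl11 and Cxcl1 (limma). Of the 25, 14 had an unadjusted p under 0.05 in either direction. Shares of all probes were not counted for p-value limits without the 2-fold limit, here or below. Another 2 higher and 6 lower probes passed the adjusted p without passing 2-fold. The member median was -0.24, against -0.03 over 35765 probes. With shActb_1, 1 of 26 member probes was called higher (Ccl9, background 0.486%) and 3 lower (Cxcl13, Cxcl5 and Ccl11, background 1.12%), with a member median of -0.01 against 0.01. With shActb_2, 1 of 26 was called higher (Cxcl14, background 1.73%) and 5 lower (Cxcl13, Ccl7, Cxcl16 and both Cxcl9 probes, background 4.58%), with a member median of -0.37 against -0.02. At the adjusted p alone (limma), calls included, 3 were higher and 6 lower with shActb_1, and 4 higher and 15 lower with shActb_2. An unadjusted p under 0.05 was reached by 12 and 20 of the 26 probes, respectively. When the hairpins were set against each other, 2 of 25 member probes were higher with shActb_2 (Cxcl14 and Cxcl5, background 1.8%) and 5 lower (Ccl9, Cxcl16, Ccl7, Ccl2 and 1 Cxcl9 probe, background 3.24%). Srf and Mkl1 share the EGFP arrays, and the hairpins share the shEGFP arrays, so these counts are not independent of each other. Some of the values named here entered only through the group in which they were brighter. These were Cxcl15 (Srf), Ccl11 (Mkl1 and shActb_1), Cxcl13 (shActb_1) and Cxcl9 (shActb_2, both probes against shEGFP and 1 against shActb_1). Their p-values use signals of the other group that were not above background on 1 array (Ccl11 for Mkl1 and the second Cxcl9 probe) or on both. Where it was both, a bound from the mean of the brighter group is given below. Only that of Cxcl13 exceeds 2-fold, and its shEGFP arrays differed widely.

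**Figure D1:**
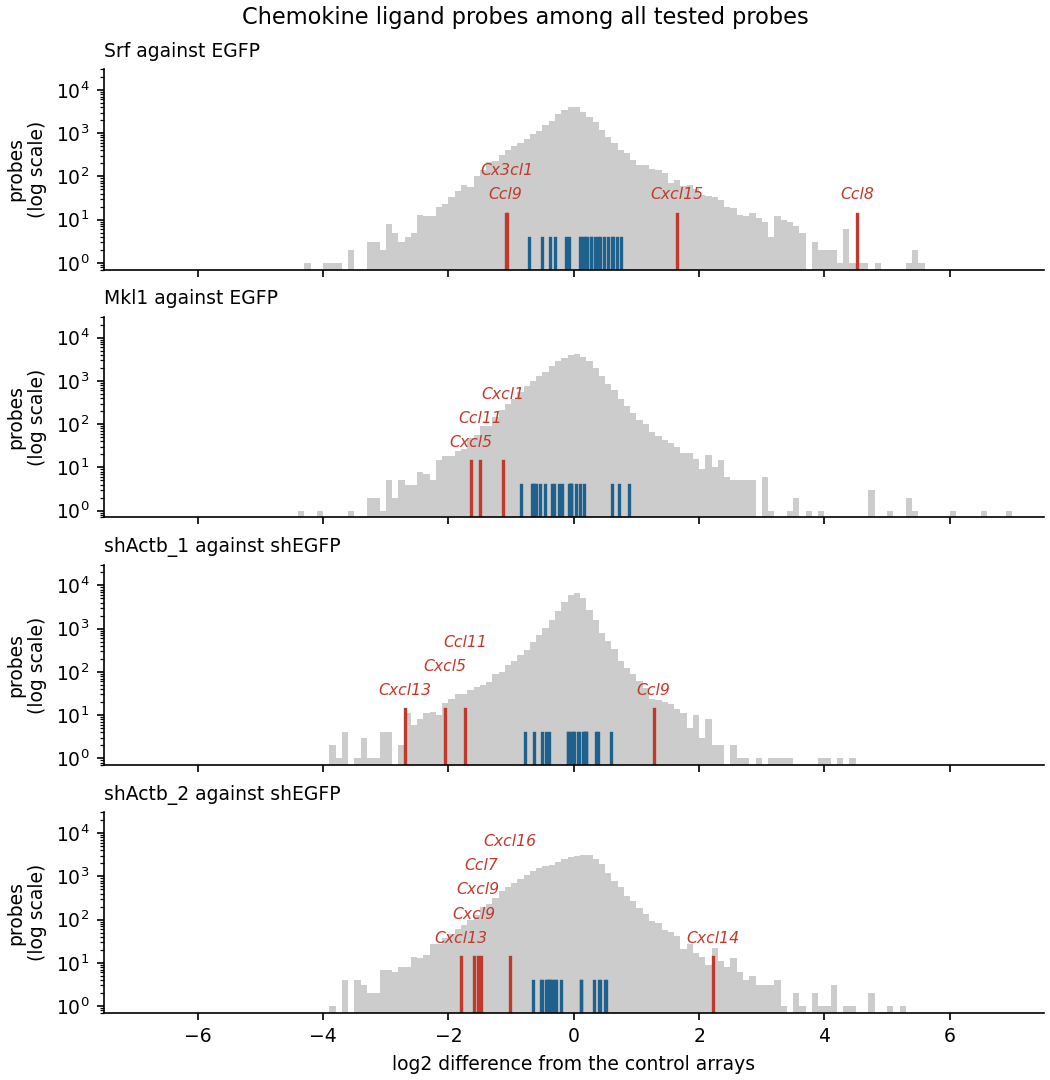
Log2 differences from the control arrays (horizontal axis) for all tested probes (grey histogram, number of probes on a log axis) and for the tested chemokine ligand probes (short blue ticks, not called; tall red ticks, called and named). Ccl8 lies at 4.53 in the comparison of Srf with EGFP, and the called member probes number 3 for Mkl1, 4 for shActb_1 and 6 for shActb_2. The 4 named for Srf belong to the comparison that selected the family and are a description only.

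Ccl8 is a monocyte-attracting CC ligand and one of a row of neighbouring genes on chromosome 11, in the order Ccl2, Ccl7, Ccl11, Ccl12, Ccl8 and Ccl1. The Ccl8 probe (NM_021443) read -3.33 and -4.12 in EGFP, -3.42 and -4.16 on the arrays labelled Mkl1, and 1.11 and 0.49 on the arrays labelled Srf. In the knockdown experiment it read -4.69 and -4.44 in shEGFP, -4.07 and -4.36 in shActb_1, and -3.87 and -4.44 in shActb_2. Ccl8 was thus far above the other 10 arrays on the pair labelled Srf, and above background on all 12. The difference from EGFP, which selected the family, was 4.53 (SE 0.37), or 23.1-fold, and lay between 3.47 and 4.92 under all alternatives run. The other comparisons gave no call for Ccl8. The difference was -0.06 for Mkl1 (95% interval -0.92 to 0.81, adjusted p = 0.922, limma), 0.35 for shActb_1 (-0.51 to 1.21, adjusted p = 0.694) and 0.41 for shActb_2 (-0.45 to 1.27, adjusted p = 0.413). The upper ends of these intervals allow an increase of up to 1.27.

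Ccl2, the main monocyte chemoattractant, read 6.36 and 6.43 in EGFP, 6.65 and 6.46 on the arrays labelled Srf and 6.43 and 6.28 on those labelled Mkl1. In the knockdown experiment it read 6.68 and 6.72 in shEGFP, 7.33 and 7.24 in shActb_1, and 6.21 and 6.16 in shActb_2. The hairpin groups lay on opposite sides of shEGFP, without overlap. Ccl2 differed by 0.59 with shActb_1 (SE 0.09, adjusted p = 0.00648) and by -0.52 with shActb_2 (SE 0.09, adjusted p = 0.00307, limma), neither over 2-fold, and differed by -1.11 between the hairpins (SE 0.09, adjusted p = 0.000291). Its difference was 0.16 (SE 0.09) on the arrays labelled Srf, beside 4.53 for Ccl8 in the same row of genes.

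Ccl7, a close relative of Ccl2, read 3.35 and 3.33 in shEGFP, 3.38 and 3.13 in shActb_1, and 1.93 and 1.79 in shActb_2. Only the shActb_2 arrays stood apart. Ccl7 fell by 1.48 with shActb_2 (SE 0.12, adjusted p = 0.000185, limma), while with shActb_1 the difference was -0.09 (95% interval -0.36 to 0.19, adjusted p = 0.784). The hairpins differed by -1.40 (SE 0.12, adjusted p = 0.000374). In the overexpression experiment Ccl7 read 2.91 and 2.94 in EGFP, 3.32 and 3.08 on the arrays labelled Srf, and 2.65 and 2.48 on those labelled Mkl1. The Mkl1 difference was -0.35 (SE 0.12, adjusted p = 0.0705) and the Srf difference 0.28 (SE 0.12).

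Ccl11, the eosinophil attractant eotaxin, was close to background. It read -3.51 and -3.73 in EGFP, -2.65 and -3.09 on the arrays labelled Srf, and -4.81 and -5.41 on those labelled Mkl1, of which 1 of 2 was above background. It read -5.41 and -4.87 in shEGFP, -6.74 and -6.99 in shActb_1 (neither above background), and -5.17 and -5.98 in shActb_2 (1 of 2 above background). The measured Ccl11 difference on the arrays labelled Mkl1 was -1.49 (SE 0.33, adjusted p = 0.0189, limma). With shActb_1 Ccl11 was at least 1.62-fold lower, the bound being set by the dimmest signal that counted as above background. The measured difference there was -1.73 (adjusted p = 0.018, limma), which uses shActb_1 signals not above background. The Mkl1 call was lost without EGFP replicate 1 (-1.38) or Mkl1 replicate 2 (-1.19), and the shActb_1 call was lost without any 1 of its 4 arrays (-1.46 to -2.003). Under normexp these Ccl11 differences were -0.59 and -0.39. Ccl12, the remaining relative, read between -7.30 and -5.01 over the 12 arrays and was not tested.

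**Figure D2:**
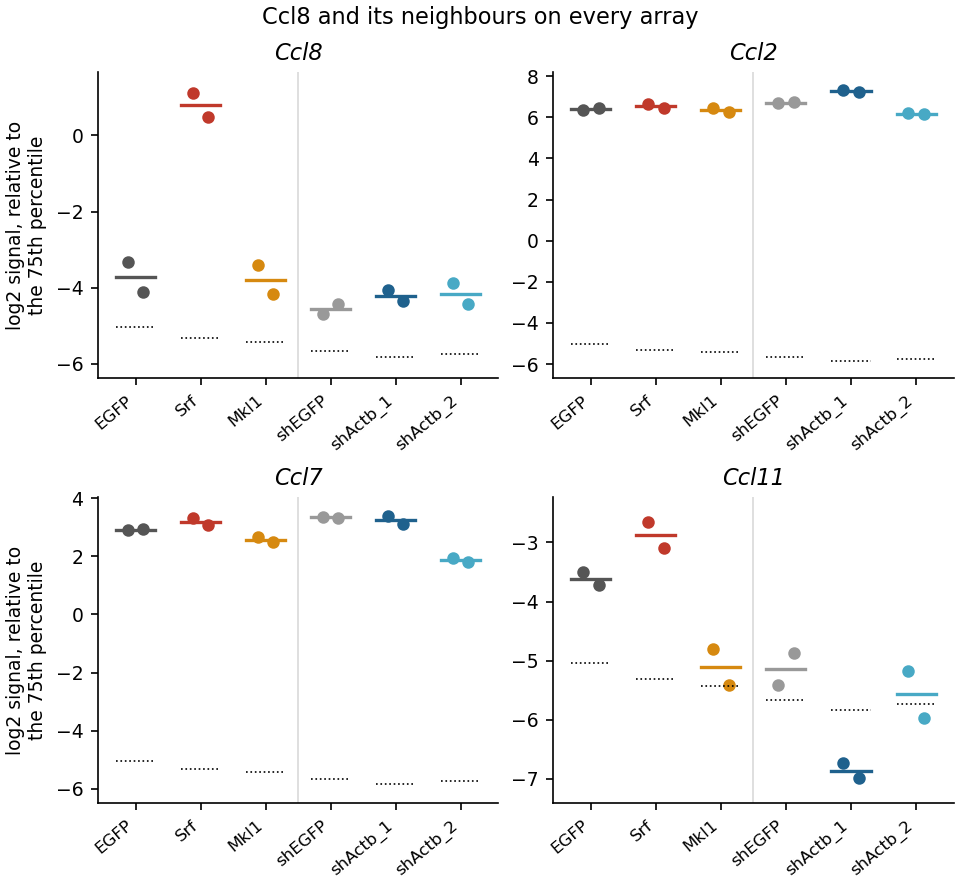
Log2 signal relative to the 75th percentile of the array (vertical axis) on each of the 12 arrays (points) for Ccl8, Ccl2, Ccl7 and Ccl11, with group means (solid bars) and the mean of the dimmest above-background signals of the group's arrays (dotted bars). Ccl8 stands at 1.11 and 0.49 on the arrays labelled Srf and between -4.69 and -3.33 on the other arrays, Ccl7 is lowest with shActb_2, and Ccl11 with shActb_1 lies under the dotted bar.

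Among the other inflammatory CC ligands, Ccl5 and Ccl9 were measurable. Ccl9, which acts on Ccr1 of myeloid cells, read -2.49 and -2.23 in EGFP, -3.51 and -3.38 on the arrays labelled Srf, and -1.58 and -1.71 on those labelled Mkl1. It read -1.79 and -1.79 in shEGFP, -0.42 and -0.62 in shActb_1, and -2.19 and -2.12 in shActb_2. No groups compared with each other overlapped. Ccl9 rose by 1.27 with shActb_1 (SE 0.11, adjusted p = 0.000743, limma). The differences were -0.36 with shActb_2 (SE 0.11, adjusted p = 0.0331) and 0.71 on the arrays labelled Mkl1 (SE 0.11, adjusted p = 0.00471), both under 2-fold. The hairpins differed by -1.64 (SE 0.11, adjusted p = 0.000201). On the arrays labelled Srf it was -1.09 (SE 0.11), which fell short of 2-fold without EGFP replicate 2 (-0.96) and under normexp background correction (-0.66). Ccl5, which attracts T cells and monocytes, read 0.06 and 0.08 in EGFP, 0.24 and 0.14 on the arrays labelled Srf, and 0.94 and 0.98 on those labelled Mkl1. The Mkl1 difference of 0.89 (SE 0.08, adjusted p = 0.000778, limma) came nearest to 2-fold among the uncalled member values past the adjusted p. Ccl5 read 0.77 and 0.63 in shEGFP, 0.99 and 0.79 in shActb_1, and 1.02 and 1.02 in shActb_2. Its differences were 0.19 (adjusted p = 0.242) and 0.32 (adjusted p = 0.0196), respectively.

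The homeostatic CC ligands, which position lymphocytes in lymphoid organs, gut and skin, had 8 tested probes in each comparison and 0 calls (limma), where 0.486% to 4.58% of all tested probes were called in a given direction in these comparisons. At an unadjusted p under 0.05 there were 4 for Mkl1, 0 for shActb_1 and 5 for shActb_2. Their differences ranged from -0.72 to 0.70 on the arrays labelled Srf, from -0.67 to 0.62 on those labelled Mkl1, from -0.09 to 0.19 with shActb_1 and from -0.50 to 0.51 with shActb_2. Ccl17 read -0.64 and -0.44 in EGFP, -1.25 and -1.25 on the arrays labelled Srf, and -0.77 and -0.79 on those labelled Mkl1. It read -0.24 and -0.34 in shEGFP, -0.16 and -0.28 in shActb_1, and -0.65 and -0.72 in shActb_2, which did not overlap shEGFP (difference -0.40, SE 0.08, adjusted p = 0.0076, limma). Ccl25, a thymus and gut chemokine, read 0.58 and 0.46 in EGFP, 1.14 and 1.15 on the arrays labelled Srf, and 0.59 and 0.50 on those labelled Mkl1 at its brighter probe. There it read -0.01 and 0.01 in shEGFP, -0.01 and -0.03 in shActb_1, and 0.51 and 0.49 in shActb_2. The difference was 0.51 with shActb_2 (SE 0.06, adjusted p = 0.000953, limma), with 0.41 at the dimmer probe (adjusted p = 0.0936).

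Ccl27a, a skin chemokine, had 3 probes. The brightest read 1.14 and 1.08 in EGFP, 1.02 and 1.03 on the arrays labelled Srf, and 0.68 and 0.45 on those labelled Mkl1. The Mkl1 difference was -0.54 there (SE 0.08, adjusted p = 0.00382, limma), -0.67 at the next (adjusted p = 0.00155) and -0.20 at the dimmest (adjusted p = 0.126). In the knockdown experiment the brightest probe read 0.48 and 0.44 in shEGFP, 0.42 and 0.38 in shActb_1, and 0.59 and 0.56 in shActb_2. None of these knockdown differences passed the adjusted p at that probe, whereas the dimmest Ccl27a probe was 0.50 higher with shActb_2 (SE 0.08, adjusted p = 0.00266, limma). Ccl19, a ligand of Ccr7, had 1 probe at background and 2 above it. The brighter of these read -2.69 and -2.98 in EGFP, -3.16 and -3.27 on the arrays labelled Srf, and -2.69 and -3.08 on those labelled Mkl1. It read -2.02 and -2.19 in shEGFP, -2.23 and -2.16 in shActb_1, and -2.46 and -2.75 in shActb_2. The Ccl19 probes went opposite ways on the arrays labelled Srf, with differences of -0.38 and 0.70, and the groups did not overlap at either.

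The ELR-type CXC ligands attract neutrophils through Cxcr2, and the genes Cxcl5, Cxcl3, Cxcl15, Cxcl1 and Cxcl2 are near each other on chromosome 5. Cxcl5 (NM_009141) read 1.496 and 1.38 in EGFP, 2.08 and 1.90 on the arrays labelled Srf, and -0.13 and -0.27 on those labelled Mkl1. It read 1.57 and 1.64 in shEGFP, -0.38 and -0.53 in shActb_1, and 1.31 and 1.25 in shActb_2. The Mkl1 and shActb_1 arrays were both far below their controls, and shActb_2 lay just under shEGFP. Cxcl5 fell by 1.64 on the arrays labelled Mkl1 (SE 0.09, adjusted p = 9.67e-05), 3.11-fold, and by 2.06 with shActb_1 (SE 0.09, adjusted p = 5.14e-05, limma), 4.16-fold. With shActb_2 the difference was -0.33 (95% interval -0.54 to -0.11, adjusted p = 0.0259), and the hairpins differed by 1.73 (SE 0.09, adjusted p = 0.000115). Every alternative run kept the Cxcl5 calls for Mkl1, for shActb_1 and between the hairpins.

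Cxcl1 read 1.97 and 2.37 in EGFP, 2.59 and 2.53 on the arrays labelled Srf, and 1.07 and 1.02 on those labelled Mkl1. It read 2.50 and 2.60 in shEGFP, 1.71 and 1.83 in shActb_1, and 2.09 and 2.13 in shActb_2. No treated group overlapped its control. Cxcl1 fell by 1.13 on the arrays labelled Mkl1 (SE 0.12, adjusted p = 0.00135, limma), and without EGFP replicate 2 by 0.92, short of 2-fold. With the spread taken from the compared arrays only, this adjusted p was 0.0836 (range over all alternatives 3.08e-05 to 0.0836). The differences were -0.78 with shActb_1 (SE 0.12, adjusted p = 0.00889) and -0.44 with shActb_2 (SE 0.12, adjusted p = 0.0259), both under 2-fold.

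Cxcl3 was never called. It read -1.54 and -1.43 in EGFP, -1.16 and -1.27 on the arrays labelled Srf, and -2.01 and -2.23 on those labelled Mkl1. It read -0.86 and -0.76 in shEGFP, -1.28 and -1.61 in shActb_1, and -1.44 and -1.48 in shActb_2. The differences were -0.63 for Mkl1 (adjusted p = 0.0113), -0.64 for shActb_1 (adjusted p = 0.0183) and -0.65 for shActb_2 (adjusted p = 0.00506, limma), each with SE 0.12. Side by side, Cxcl5, Cxcl1 and Cxcl3 differed by -1.64, -1.13 and -0.63 on the arrays labelled Mkl1, by -2.06, -0.78 and -0.64 with shActb_1, and by -0.33, -0.44 and -0.65 with shActb_2, where the hairpins share the shEGFP arrays. The sign of each of these values was the same under every alternative run. On the arrays labelled Srf the Cxcl5, Cxcl1 and Cxcl3 probes were 0.55, 0.39 and 0.27 higher than in EGFP. Cxcl15, a lung chemokine, was above background on both arrays of the Srf group only, at -5.14 and -4.54 against -6.42 and -6.54 in EGFP, and was at least 1.14-fold higher there. The measured Cxcl15 difference of 1.64 was 0.39 under normexp, and its SE went from 0.28 to 0.69 with a variance trend.

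**Figure D3:**
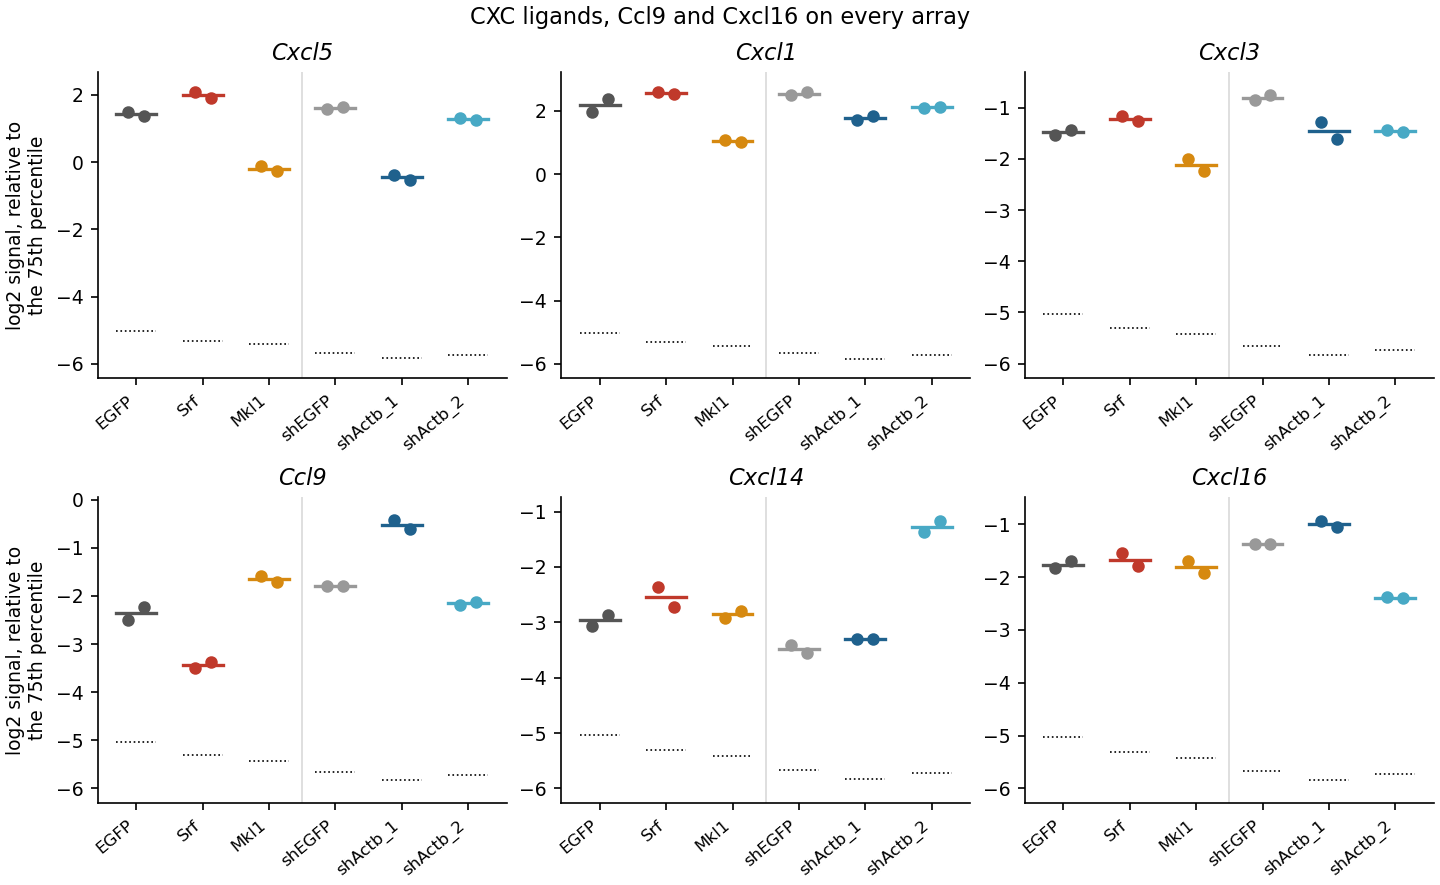
Log2 signal relative to the 75th percentile of the array (vertical axis) on each array (points) for Cxcl5, Cxcl1, Cxcl3, Ccl9, Cxcl14 and Cxcl16, with group means (solid bars) and the mean of the dimmest above-background signals (dotted bars). Cxcl5 is low on the arrays labelled Mkl1 (-0.13 and -0.27) and in shActb_1 (-0.38 and -0.53), Ccl9 is high in shActb_1, and Cxcl14 is high and Cxcl16 low in shActb_2.

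Cxcl9 and Cxcl10 are interferon-inducible ligands of Cxcr3, a receptor of activated T cells. Cxcl10 read 2.17 and 2.19 in EGFP, 2.76 and 2.57 on the arrays labelled Srf, and 2.08 and 2.11 on those labelled Mkl1. It read 2.44 and 2.54 in shEGFP, 2.86 and 2.86 in shActb_1, and 2.07 and 2.11 in shActb_2. As with Ccl2, the hairpins lay on opposite sides of their control. The Cxcl10 differences were 0.37 with shActb_1 (SE 0.07, adjusted p = 0.0231) and -0.41 with shActb_2 (SE 0.07, adjusted p = 0.0046, limma), and -0.77 between the hairpins (adjusted p = 0.000624), all under 2-fold. Cxcl9 was near background at both probes. The first probe read -5.06 and -4.64 in shEGFP, -4.69 and -4.85 in shActb_1, and -6.31 and -6.58 in shActb_2, where neither array was above background. There Cxcl9 was at least 1.84-fold lower with shActb_2 than in shEGFP and at least 1.95-fold lower than in shActb_1. The measured differences, which use shActb_2 signals not above background, were -1.60 (adjusted p = 0.0229) and -1.68 (adjusted p = 0.0235, limma). At the other probe, above background on 1 of 2 shActb_2 arrays, the measured Cxcl9 difference was -1.53 with shActb_2 (SE 0.41, adjusted p = 0.0215, limma). Leaving out any 1 of the 4 arrays ended the first probe's Cxcl9 calls, at -1.39 to -1.81 against shEGFP and -1.54 to -1.81 between the hairpins. The other probe's Cxcl9 call was lost without shEGFP replicate 1 (-1.28), shActb_2 replicate 1 (-1.58) or shActb_2 replicate 2 (-1.49). The hairpins differed by -1.14 at the other, brighter probe (SE 0.41, adjusted p = 0.0706, limma), which was not called. In the overexpression experiment the first Cxcl9 probe read -7.11 to -6.01 in EGFP, -5.77 to -4.92 on the arrays labelled Srf and -7.27 to -6.44 on those labelled Mkl1. Only 1 of these arrays, labelled Srf, was above background. The brighter probe read -4.61 and -4.80 in EGFP, -4.95 and -3.79 on the arrays labelled Srf (overlapping), and -5.61 and -4.70 on those labelled Mkl1.

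Cxcl12, the ligand of Cxcr4 that guides neural progenitor migration, read 3.51 and 3.79 in EGFP, 4.27 and 4.25 on the arrays labelled Srf, and 3.09 and 2.92 on those labelled Mkl1 at its brighter probe. It read 3.24 and 3.19 in shEGFP, 2.84 and 2.55 in shActb_1, and 2.86 and 2.81 in shActb_2. All treated groups stood apart from their control at this probe. Cxcl12 differed by -0.65 on the arrays labelled Mkl1 (SE 0.12, adjusted p = 0.0108), with -0.60 at its other probe (adjusted p = 0.0109). The brighter probe gave -0.51 with shActb_1 (adjusted p = 0.0424) and -0.38 with shActb_2 (adjusted p = 0.0431, limma), while the other gave -0.44 (adjusted p = 0.0551) and -0.20 (adjusted p = 0.195), neither past it. The Cxcl12 probes, which match different transcripts (NM_001012477 and NM_021704), went opposite ways on the arrays labelled Srf, at 0.61 (SE 0.12) and -0.29 (SE 0.11).

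Cxcl13, the B cell attractant, read -4.08 and -3.58 in EGFP, -4.39 and -4.28 on the arrays labelled Srf, and -4.77 and -4.59 on those labelled Mkl1. It read -2.41 and -4.23 in shEGFP, -6.03 and -6.01 in shActb_1 (neither above background), and -5.18 and -5.06 in shActb_2. The shEGFP arrays differed from each other by more than any other pair of this probe. Cxcl13 was at least 5.69-fold lower with shActb_1 (adjusted p = 0.0154) and fell by 1.80 with shActb_2 (SE 0.49, adjusted p = 0.0226, limma). Without shEGFP replicate 1 these measured differences were -1.78 and -0.89, the latter short of 2-fold, and without shEGFP replicate 2 they were -3.61 and -2.71. The shActb_1 call was also lost without shActb_1 replicate 1 (-2.69) or replicate 2 (-2.71), and the shActb_2 call without shActb_2 replicate 1 (-1.74) or replicate 2 (-1.86). Under normexp the Cxcl13 differences were -0.90 and -0.72.

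Cxcl14, a chemokine of epithelia and brain, showed the largest increase among the tested members with shActb_2. It read -3.41 and -3.55 in shEGFP, -3.30 and -3.29 in shActb_1, and -1.37 and -1.17 in shActb_2. The shActb_2 pair was well above the other knockdown arrays. Cxcl14 rose by 2.21 with shActb_2 (SE 0.14, adjusted p = 7.84e-05, limma), 4.64-fold, against 0.18 with shActb_1 (95% interval -0.13 to 0.50, adjusted p = 0.516). The hairpins differed by 2.03 (SE 0.13, adjusted p = 0.000195). In the overexpression experiment it read -3.06 and -2.86 in EGFP, -2.37 and -2.73 on the arrays labelled Srf, and -2.91 and -2.79 on those labelled Mkl1, with a Mkl1 difference of 0.11 (adjusted p = 0.608).

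Of the transmembrane ligands, Cxcl16 (a ligand of Cxcr6) read -1.38 and -1.37 in shEGFP, -0.93 and -1.05 in shActb_1, and -2.38 and -2.41 in shActb_2. The hairpins again lay on opposite sides of the control. Cxcl16 fell by 1.02 with shActb_2 (SE 0.11, adjusted p = 0.000527, limma), just past 2-fold, and this was -0.88 under quantile normalization and under normexp. With shActb_1 the difference was 0.38 (SE 0.11, adjusted p = 0.072), and the hairpins differed by -1.40 (adjusted p = 0.000283). In the overexpression experiment Cxcl16 read -1.84 and -1.70 in EGFP, -1.55 and -1.78 on the arrays labelled Srf, and -1.70 and -1.93 on those labelled Mkl1, all overlapping. Cx3cl1, the neuronal ligand of the microglial receptor Cx3cr1, read 5.26 and 5.25 in EGFP, 4.18 and 4.20 on the arrays labelled Srf, and 4.95 and 4.92 on those labelled Mkl1. The Srf difference was -1.06 (SE 0.06), between -1.07 and -1.03 under the alternatives, and the Mkl1 difference was -0.31 (SE 0.06, adjusted p = 0.00841, limma). Cx3cl1 read 5.55 and 5.49 in shEGFP, 5.73 and 5.63 in shActb_1, and 5.23 and 5.23 in shActb_2, where the difference was -0.29 (SE 0.06, adjusted p = 0.00591, limma).

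**Figure D4:**
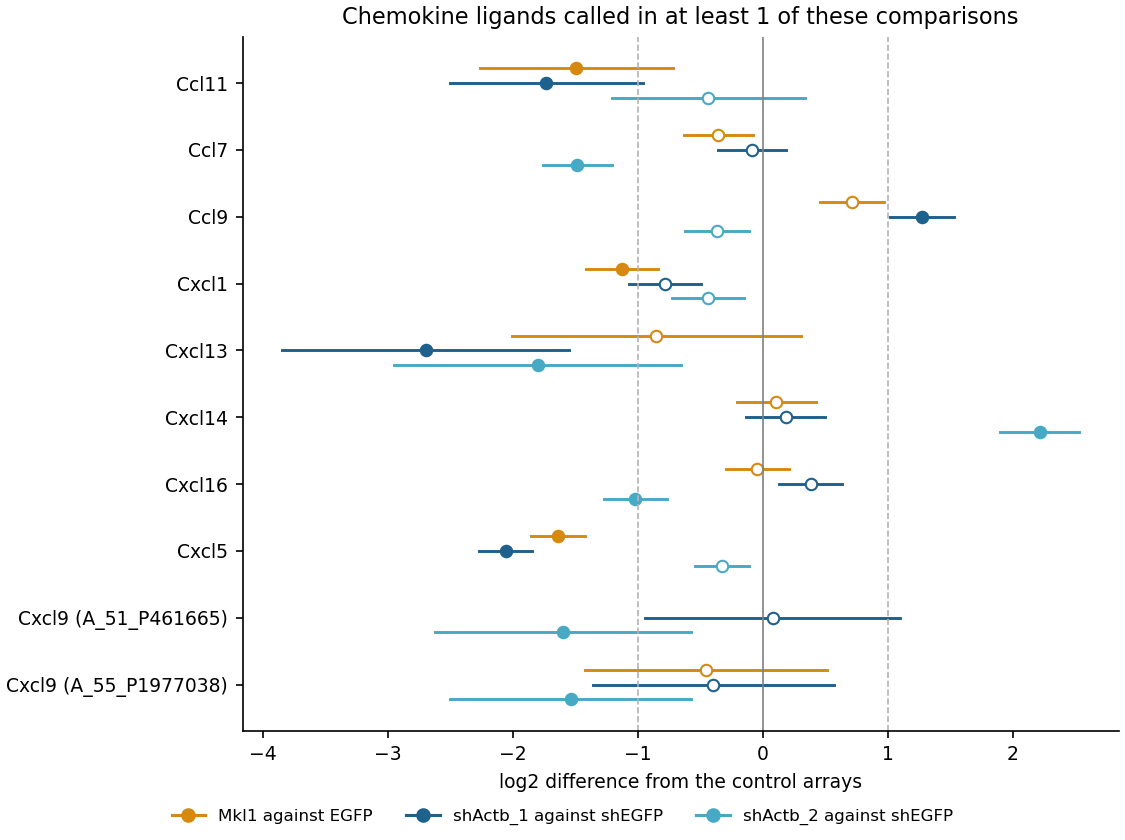
Log2 differences from the control arrays (horizontal axis; points, with 95% intervals as lines) for the chemokine ligands called on the arrays labelled Mkl1 or with a hairpin; filled points are called, open points are not, and dashed lines mark 2-fold. Cxcl5 differs by -1.64 for Mkl1, -2.06 for shActb_1 and -0.33 for shActb_2, whereas Cxcl14 differs by 2.21 for shActb_2 alone.

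Other chemokine ligands and the receptors were read at the brightest probe of each gene. Of 5 further ligands, 4 were tested in each comparison. Only Ppbp and Pf4, platelet chemokines whose genes lie beside Cxcl5 and Cxcl3, were called in any comparison. Ppbp was not above background in EGFP and was at least 24.0-fold higher on the arrays labelled Srf. It was at least 4.41-fold higher on the arrays labelled Mkl1 (adjusted p = 0.000396, which uses EGFP signals not above background) and rose by 1.41 with shActb_2 (SE 0.23, adjusted p = 0.00256, limma), where it was 1.05 higher than with shActb_1 (SE 0.22, adjusted p = 0.0113). Pf4 was 1.73 higher on the arrays labelled Srf (SE 0.10) and fell by 1.17 with shActb_1 (SE 0.10, adjusted p = 0.000753, limma). The receptor list had 24 genes, of which 12 to 14 were tested. Cxcr3 was called higher on the arrays labelled Mkl1 (1.61, SE 0.20, adjusted p = 0.00229, limma, background 1.29%). Cxcr4 was called between the hairpins (background 1.8%), at least 2.5-fold higher with shActb_2 than in shActb_1. Its adjusted p of 0.00597 (limma) uses shActb_1 signals not above background. With either hairpin against shEGFP, 0 of 12 receptors were called (limma), with 2 and 3 at an unadjusted p under 0.05. Of all tested probes, 0.486% were called higher and 1.12% lower with shActb_1, and 1.73% and 4.58% with shActb_2. On the arrays labelled Srf the Cxcr3 difference was 2.84 (SE 0.20) and that of Cxcr6 -1.65 (SE 0.13). Ccr1 and Ccr2, receptors of inflammatory CC ligands, were above background on no array, nor were Cxcr1, Xcr1, Ackr4 and Ccr1l1.

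Of 26 NF-kB and cytokine genes, 20 to 22 were tested. Cebpd, a transcription factor of inflammatory genes, fell by 1.35 on the arrays labelled Mkl1 (SE 0.08, adjusted p = 0.000133), by 2.35 with shActb_1 (SE 0.08, adjusted p = 1.64e-05) and by 1.05 with shActb_2 (SE 0.08, adjusted p = 0.00017, limma). It was the only gene of this list called with shActb_1. Ptgs2, an inducible prostaglandin synthase, rose by 1.49 on the arrays labelled Mkl1 (SE 0.10, adjusted p = 0.00022) and by 1.35 with shActb_2 (SE 0.10, adjusted p = 0.000146, limma). Vcam1, an adhesion molecule induced by NF-kB, fell by 1.79 with shActb_2 (SE 0.09, adjusted p = 4.55e-05, limma). Between the hairpins 3 of 21 tested genes were called higher with shActb_2 (background 1.8%), among them Il6 (at least 3.0-fold, shActb_1 not being above background) and Cebpd (1.30). Another 3 were called lower (background 3.24%), among them Vcam1 (-1.34) and Nfkbie (-1.23). On the arrays labelled Srf the differences were 1.94 for Il33 (1 of 2 EGFP arrays above background) and 1.34 for Lif, Il6 was at least 1.76-fold higher, and Il1a, not above background there, was at least 1.93-fold lower. In the list of 16 interferon-response factors, 13 were tested in each comparison and 0 were called. Of all tested probes, 0.486% to 4.58% were called in a given direction in these comparisons. The adjusted p alone was passed by 5 for Mkl1, 3 for shActb_1 and 9 for shActb_2 (limma), and an unadjusted p under 0.05 by 7, 7 and 9. The medians of this list were -0.08 for Srf, -0.11 for Mkl1, 0.15 for shActb_1 and 0.06 for shActb_2.

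Markers of cell types that make chemokines were read on the same arrays. Of 14 microglia and macrophage markers, 7 or 8 were above background on both arrays of each group, and C1qc was above it on no array. Their summed signal, in multiples of the array's 75th percentile, was 11.3 to 12.01 in EGFP, 15.6 to 16.4 on the arrays labelled Srf and 11.2 to 12.6 on those labelled Mkl1. It was 12.7 to 14.7 in shEGFP, 11.95 to 12.5 in shActb_1 and 11.1 to 12.01 in shActb_2. The sums weigh bright probes most, and the median difference over the 8 tested markers was -0.26 for Srf, -0.33 for Mkl1, -0.18 for shActb_1 and -0.49 for shActb_2, so that sum and median had opposite directions for Srf. On the arrays labelled Srf, where Ccl8 was high, Csf1r and Cd68 were 1.44 and 1.12 higher and Tmem119 and Aif1 were -2.09 and -1.29. With shActb_2, Adgre1 and Ptprc fell by 1.05 and 1.02 (adjusted p = 0.00328 and 0.0325, limma), and Aif1 fell by 1.51 on the arrays labelled Mkl1 (adjusted p = 0.0253, limma). Of 8 fibroblast markers, 7 or 8 were above background on both arrays of each group. Their sum was 172 to 173 in EGFP, 99.0 to 102 on the arrays labelled Srf, 101 to 121 on those labelled Mkl1, 135 to 144 in shEGFP, 104 to 114 in shActb_1 and 81.8 to 85.0 in shActb_2. The median difference over the tested fibroblast markers was 0.32 for Srf, again opposite to the sum, and -0.71, -0.49 and -0.65 for Mkl1, shActb_1 and shActb_2. Lum was not above background in EGFP and was at least 11.8-fold higher on the arrays labelled Srf, where the differences were 1.49 for Thy1, 0.85 for Dcn, -1.10 for Col1a2 and -0.84 for Col3a1. Dcn and Pdgfrb fell on the arrays labelled Mkl1 (by 1.79 and 1.69), with shActb_1 (by 1.96 and 1.87) and with shActb_2 (by 1.55 and 1.75), while Thy1 rose in each (by 3.09, 1.63 and 2.90), all past the adjusted p, and was 1.27 higher with shActb_2 than with shActb_1 (adjusted p = 0.00112, limma). The endothelial list had 2 or 3 of 7 markers above background. Kdr and Pecam1 were above it on all 12 arrays, and Cdh5, Tek, Tie1 and Emcn on none. The T cell list had 2 or 3 of 5 in each group, with Cd3e and Cd4 above background on all 12 arrays and Cd8a on none. Cd3g, not above background on the arrays labelled Srf, was at least 1.58-fold lower there than in EGFP. The astrocyte list had 2 or 3 of 5. The part of these markers in the chemokine differences was not tested.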

How the data were processed

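Total RNA of 12 samples was hybridized to 1-colour Agilent arrays, 1 sample each. The authors read the scans with Agilent software (Feature Extraction 11.5.1.1) and deposited, per spot, a background-subtracted processed signal intensity. They also deposited a log2 table, each column of which differed from log2 of that intensity by a constant (within 0.01 for 100% of probes). A per-spot flag gives whether the intensity is well above background.

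Log2 of the processed signal was averaged over the spots of a probe, without control spots and outlier spots, and the array's 75th percentile was subtracted. The number of arrays limits the precision. Probe accessions were matched to RefSeq symbols of GRCm38.p6, and 28026 of 55681 probes (50.3%) were named. Groups came from sample titles. All 12 arrays were fitted with limma 3.58.1 in R 4.3.3, with 1 mean per group. Tests were two-sided, adjusted by Benjamini-Hochberg over all tested probes. The code was tested on simulated data. No samples were left out.

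The members, lists and tests were chosen with earlier results of these data known. Named were Ccl8, its relatives Ccl2, Ccl7, Ccl11 and Ccl12, every called member and every member above background on all 12 arrays. From other lists, called genes were named, at most 4 per list and comparison. Where one group was at background, a bound replaced the fold change. Alternatives were normexp background correction (offset 50, on the median spot signal), quantile normalization, the log2 table of the authors, no or a stricter filter on dim probes, the compared arrays only, a replicate block, a variance trend, each array left out and the adjusted p alone.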

Additional observations from a re-analysis of the deposited data

Results flagged for a closer look

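The 2 hairpins against Actb gave different levels for 7 of 25 tested chemokine probes, each by a direct test of shActb_2 against shActb_1 (limma, adjusted p under 0.05, measured difference over 2-fold). Of all 35426 probes tested there, 1.8% were called higher and 3.24% lower. As shActb_2 minus shActb_1, the log2 differences were 2.03 for Cxcl14, 1.73 for Cxcl5, -1.64 for Ccl9, -1.40 for Cxcl16, -1.40 for Ccl7, and -1.11 for Ccl2. For 1 of the Cxcl9 probes the measured value was -1.68, but shActb_2 was not above background there, and the bound, at least 1.95-fold lower, does not reach 2-fold. Ccl2, Cxcl16, Ccl9 and this Cxcl9 probe had hairpin means on opposite sides of shEGFP, the Cxcl9 mean of shActb_1 being 0.08 above it. The shActb_2 arrays were alone on slide 3, so hairpin and slide cannot be told apart. Groups of 2 arrays are too small to look for a single array far from the others.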

How the results depend on the processing

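Leaving aside the Srf comparison, which selected the family, none of 20 called member values changed direction in 234 refits and 9 lost their call in at least 1 of them. The calls kept under every alternative were Cxcl5 for Mkl1, Cxcl5 and Ccl9 for shActb_1, Ccl7 and Cxcl14 for shActb_2, and Ccl2, Ccl7, Ccl9, Cxcl5, Cxcl14 and Cxcl16 between the hairpins. Of 78 uncalled values other than those of Ccl8, 13 changed sign somewhere, the largest of them 0.45 in size. The difference of Ccl8 for Mkl1 turned to 0.18 under quantile normalization and ranged from -0.45 to 0.33 with 1 array left out. Its difference between the hairpins turned to -0.062 under normexp and ranged from -0.23 to 0.34 with 1 array left out.

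Among the 9, adjusted p over the alternatives reached 0.13 for Ccl11, 0.133 for Cxcl13 and 0.126 for Cxcl9, whose differences under normexp were -0.50 and -0.50 against shEGFP and -0.48 between the hairpins. The number of member probes called was 4, 3, 4, 6 and 7 for Srf, Mkl1, shActb_1, shActb_2 and the hairpin difference, the Srf counts being a description only. With normexp, which also changed the offset and took the median spot signal, it was 2 for Srf, 2 for shActb_1 and 2 for shActb_2, and quantile normalization gave 2 for shActb_2. In both, the cause was not tested. The compared arrays alone gave 1 for Mkl1 and 2 for shActb_1, with fewer arrays behind the spread. Requiring both groups above background gave 2 for shActb_1, as dim probes left the test. For Mkl1, shActb_1, shActb_2 and the hairpin difference, the adjusted p alone gave 11, 9, 19 and 12. The share of all probes was not counted at this limit. With 1 array left out, the lone array of a group being assumed to vary like the other groups, the counts ran from 3 to 4, 2 to 3, 2 to 5, 3 to 5 and 6 to 7. Those of shActb_1 were 2 without either shActb_1 array, and those of shActb_2 were 3 without either shActb_2 array.

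The replicate block left these counts at 4, 3, 4, 6 and 7. Replicate numbers are not tied to a shared culture or day in the labels, and same-numbered arrays of compared groups deviated together at r = -0.0023 to 0.26. No slide term could be fitted for shActb_2. Members near background, such as Ccl11, Cxcl9, Cxcl13 and Cxcl15, rest on signals within a few fold of the dimmest detected probes, which limits their values.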
